A study of Mus musculus with 8 samples.

Results

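Tissue factor (F3) and the protease-activated receptors, of which 4 are listed (F2r, F2rl1, F2rl2 and F2rl3), were followed in mouse CD4 T cells with and without the transcriptional repressor Bcl6. A gene was read from a probe set whose only symbol in the platform annotation is that gene; had there been several, the brightest over the 8 arrays would have been used. In practice 4 of the 5 genes had exactly 1 such probe set, out of 19938 genes named on the array, and F2rl1 had none and was not analysed here. The genes were picked with earlier results of these data known: F3 and F2rl2 were chosen by their difference between the genotypes, which was among the largest rises in the arrays labelled knockout. Their values for this contrast are therefore given as a description with no test. F2r and F2rl3 came in as relatives of F2rl2.

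Naive CD4 T cells were sorted from mice of 2 genotypes. The wild-type group (WT, 4 arrays) has intact Bcl6, and the other group (KO, 4 arrays) has a T cell-specific conditional deletion, written Bcl6-/-. Cells of both groups were stimulated for 24 hours through CD3 and CD28, with IL6 and IL21 added and with antibodies against IL-4, IFNg and TGFb. The labels call the result follicular helper T (Tfh) cells and do not name the Cre driver, the age or sex of the mice, or whether each array stands for its own mouse. Part of the spread behind the p-values may therefore be technical. Values are log2 signals of Affymetrix whole-transcript arrays, on which 1 unit is a doubling. Levels of different genes cannot be compared on this scale, because each probe set responds differently.

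Tissue factor is the cell-surface receptor for coagulation factor VII; the complex activates factor X and starts the reactions that end in thrombin. Thrombin and other proteases signal to cells by cutting the outer end of the protease-activated receptors (PARs), G protein-coupled receptors whose newly exposed end acts as a tethered ligand. F2r encodes PAR1, the main thrombin receptor of many cell types, F2rl1 encodes PAR2, cut by trypsin-like proteases, F2rl2 encodes PAR3, a thrombin receptor that in mouse platelets serves as a cofactor, and F2rl3 encodes PAR4, the signalling thrombin receptor of mouse platelets. Tissue factor is best known from fibroblasts, epithelia and stimulated monocytes, and PAR1 has also been described on T cells.

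Bcl6 transcript did not fall with the KO label but was higher: the signal was 9.15 ± 0.0497 (SD, n = 4) there and 8.77 ± 0.123 (SD, n = 4) in the WT-labelled arrays. The groups did not overlap (9.08 to 9.19 against 8.61 to 8.91). The difference was 0.38 ± 0.0645 (SE; limma adjusted p = 0.0303). With 1 array left out in turn, that adjusted p ran from 0.0104 to 0.11. The position of its only probe set within the gene is unknown, so this reading cannot verify the genotype, and all directions are those of the arrays as labelled. Array medians over all probe sets lay between 7.35 and 7.42. KO replicate 1 stood apart: its median deviation from the group was 0.115, against 0.035 to 0.0725 in the other arrays, and it correlated best with WT replicate 3. Cd4 stood at 12.49 ± 0.0775 (SD, n = 4) in WT-labelled and 12.5 ± 0.0342 (SD, n = 4) in KO-labelled arrays, and all 7 CD4 T cell markers on the array lay above the expression filter. Genes were tested where the value exceeded the 40th percentile of the named probe sets in at least 4 arrays, which kept 11926 genes and all 4 measured members.

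F3 was higher in every KO-labelled array than in any WT-labelled array. Its log2 signal was 7.48, 6.94, 7.12 and 7.44 in WT replicates 1 to 4 and 8.15, 8.68, 8.77 and 8.95 in KO replicates 1 to 4. The groups were separated by 0.67, and KO replicate 1 was the lowest of its group. The mean rose from 7.25 ± 0.259 (SD, n = 4) to 8.64 ± 0.344 (SD, n = 4), a log2 difference of 1.39 ± 0.172 (SE) or 2.63-fold, which ranked 1 of 11926 genes by size of rise. F3 lay above the filter in 3 of 4 WT-labelled and 4 of 4 KO-labelled arrays, so its starting level was near the lower end of the signals that entered the test.

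F2rl2, the gene of PAR3, showed the widest gap between the groups among the 4 measured members. Its signal was 7.57, 7.74, 7.73 and 7.76 in WT replicates 1 to 4 and 8.85, 9.20, 8.96 and 9.03 in KO replicates 1 to 4. The lowest KO-labelled value exceeded the highest WT-labelled value by 1.09. The difference of 1.31 ± 0.0769 (SE) or 2.48-fold ranked 3 of 11926 by size of rise, and the spread within either group was small (SD 0.0876 and 0.147, n = 4 each).

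F2r, the gene of PAR1, also rose in the KO-labelled arrays. Its signal was 8.92, 9.29, 9.27 and 9.39 in WT replicates 1 to 4, and 9.94, 9.95, 10.06 and 10.08 in KO replicates 1 to 4. The groups did not overlap, and the KO-labelled values were tightly grouped, whereas WT replicate 1 was the lowest of all 8. The mean went from 9.22 ± 0.205 (SD, n = 4) to 10.01 ± 0.0727 (SD, n = 4), a log2 difference of 0.79 ± 0.0932 (SE; 95% interval 0.582 to 0.998) or 1.73-fold. Limma gave an adjusted p of 0.00616 over all 11926 genes, and the exact two-sided permutation test of 4 against 4 gave 0.0286, the smallest p this design allows. Of all tested genes, 0.109% rose by at least as much as F2r.

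F2rl3, the gene of PAR4, did not pass the test. Its signal was 8.68, 8.75, 8.67 and 8.58 in WT replicates 1 to 4 and 8.67, 8.73, 8.50 and 8.66 in KO replicates 1 to 4. The groups overlapped almost completely. The difference was -0.03 ± 0.0607 (SE; limma adjusted p = 0.879, exact permutation p = 0.6), with a 95% interval from -0.17 to 0.11, which leaves out a rise of the size seen for F2r. Of the 2 members that were not chosen by this contrast, F2r thus passed the threshold of an adjusted p of 0.05 and F2rl3 did not, beside a background of 1.32% of tested genes called and 0.646% called higher. The groups did not overlap in 10.8% of all tested genes, or in 3.1% counting those higher in the KO-labelled arrays.

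**Figure D1:**
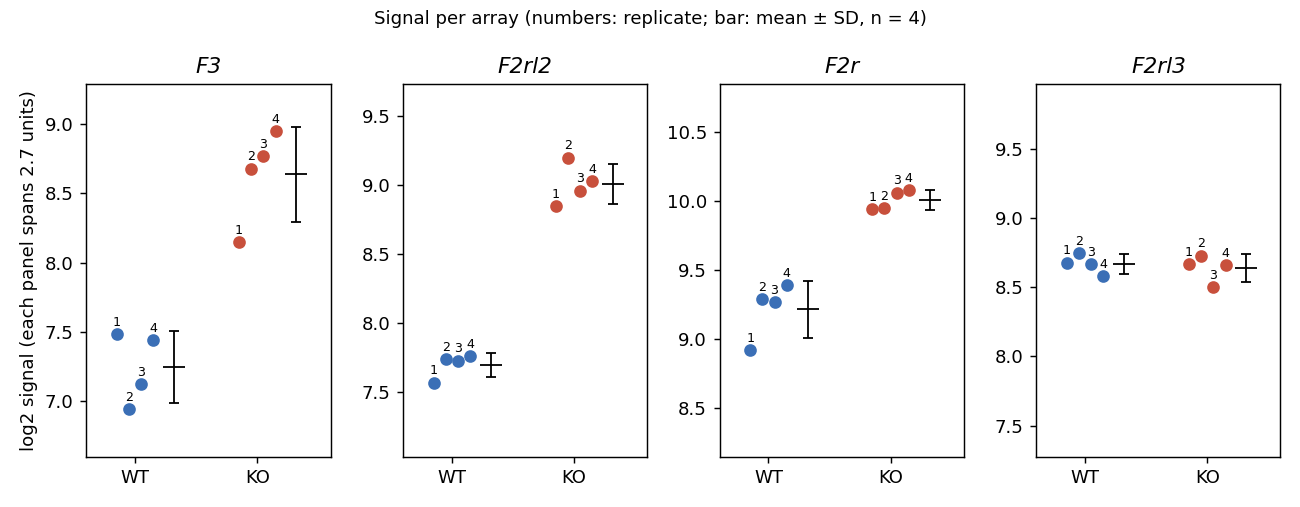
Log2 signal of F3, F2rl2, F2r and F2rl3 (vertical axes, each spanning the same width) in the 4 WT-labelled (blue) and 4 KO-labelled (red) arrays, with replicate numbers above the points and the mean ± SD (n = 4) beside each group. All KO-labelled values of F3, F2rl2 and F2r lie above all WT-labelled values, by 0.67, 1.09 and 0.55, while the 2 groups of F2rl3 overlap.

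The size of these differences did not rest on a single array. With each of the 8 arrays left out in turn, F3 differed by 1.29 to 1.56, F2rl2 by 1.25 to 1.36 and F2r by 0.69 to 0.85. Among these fits the largest limma adjusted p of F2r was 0.0335, without KO replicate 3. Without KO replicate 1, the array that stood apart, the differences were 1.56 ± 0.126 (SE) for F3, 1.36 ± 0.068 (SE) for F2rl2 and 0.81 ± 0.098 (SE) for F2r. KO replicate 1 held the lowest KO-labelled value of all 3 genes. F2rl3 ranged from -0.06 to 0.02 and changed sign without KO replicate 3.

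**Figure D2:**
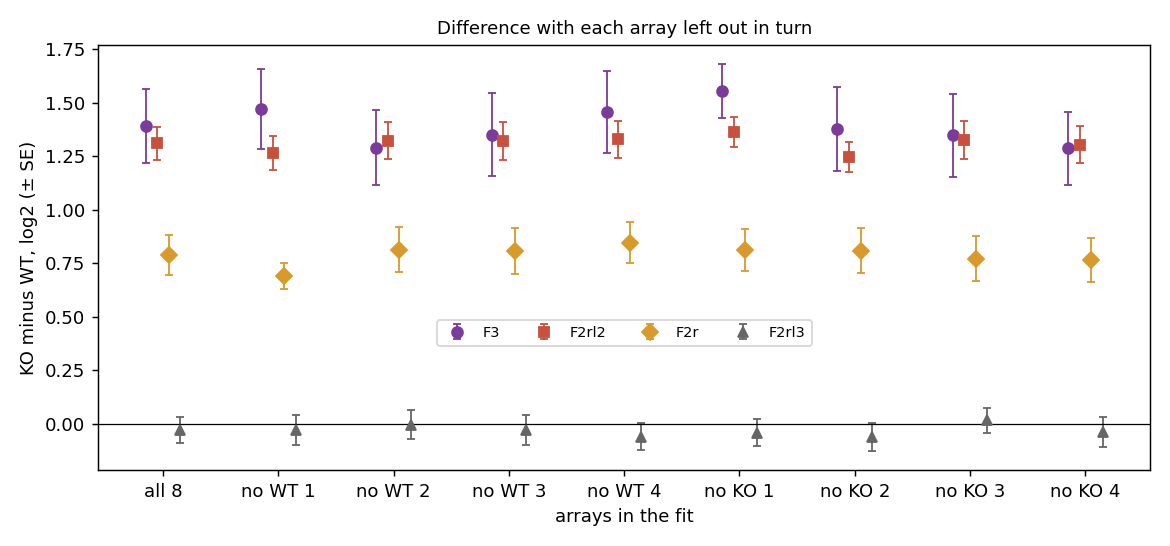
Difference KO minus WT on the log2 scale (vertical axis, ± SE from limma) for the 4 measured members with all 8 arrays and with each array left out (horizontal axis). F3 and F2rl2 stay between 1.25 and 1.56, F2r between 0.69 and 0.85 and F2rl3 within 0.06 of 0.

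Within the groups the risers did not move closely together. After each group's mean was subtracted, Pearson's r over the 8 arrays was 0.47 between F2r and F2rl2, 0.23 between F3 and F2rl2 and -0.02 between F3 and F2r; these values share the arrays and are given as description. By the same measure, the genes most like F3 were Sfswap (r = 0.99), Ehd4 (0.99) and Oxsr1 (0.99), and those most like F2r were Abcc1 (0.99), Rpusd2 (0.98) and Ubtf (0.98). For F2rl2 they were Arhgef2 (0.99), Pmel (0.98) and Slain1 (0.97), and for F2rl3 Rad23b (0.98), Uqcr10 (0.97) and Mcur1 (0.92). None of these 12 genes passed the threshold between the groups, with differences from -0.21 to 0.10 and limma adjusted p from 0.14 to 0.977. Each came from a search over all tested genes with 8 arrays, so these values of r are a description and no finding.

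The receptor genes F2rl1, F2r and F2rl2 are neighbours on mouse chromosome 13, in that order in RefSeq's gene table. F2rl2 lies inside Iqgap2, which encodes a scaffold protein of the actin cytoskeleton, and is read from the opposite strand. Iqgap2, the next named gene after F2r, stood at 10.26 to 10.50 in the WT-labelled and 10.42 to 10.51 in the KO-labelled arrays. Its difference was 0.06 ± 0.0567 (SE; 95% interval -0.07 to 0.19, limma adjusted p = 0.675), which leaves out rises of the size of F2r and F2rl2. This was likely for any gene, as 0.109% of all tested genes rose by at least as much as F2r. Poc5, a centriole protein gene, differed by 0.05 ± 0.0799 (SE; limma adjusted p = 0.839). Crhbp, S100z and Sv2c lay under the filter in all 8 arrays, with differences of 0.10, 0.13 and 0.10 and exact permutation p of 0.343, 0.171 and 0.2.

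The genes next to F3 on chromosome 3 did not pass either. Abcd3, a peroxisomal fatty acid transporter gene, differed by 0.07 ± 0.0856 (SE; limma adjusted p = 0.779), Arhgap29 by -0.07 ± 0.0752 (SE; 0.741) and Cnn3, which encodes a calponin, by -0.03 ± 0.048 (SE; 0.839). Slc44a3 lay under the filter in all 8 arrays and differed by 0.04 (exact permutation p = 0.257). Beside F2rl3 on chromosome 8, Smim7, Sin3b and Hmgxb4 differed by -0.09, -0.08 and -0.05 (limma adjusted p of 0.612, 0.486 and 0.842), and Isx lay under the filter in all 8 arrays. Of the 8 neighbouring genes that entered the test, none passed by limma, and none had an unadjusted p under 0.05. Over all tested genes the shares were 1.32% and 16.6%, so finding none among 8 genes says little about these neighbourhoods.

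**Figure D3:**
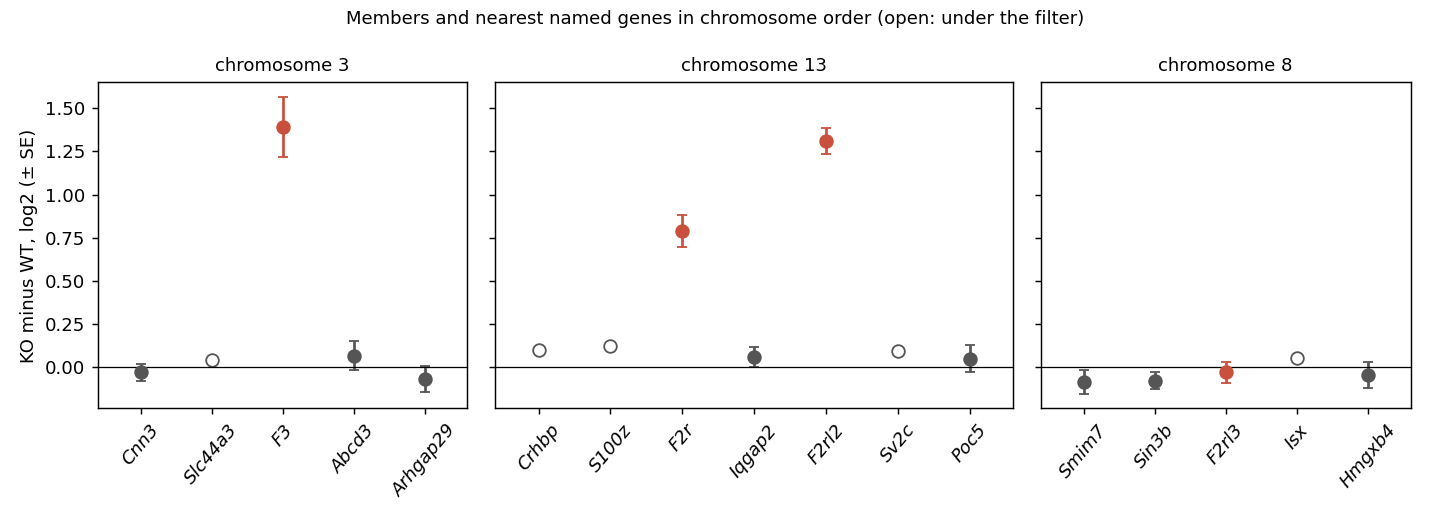
Difference KO minus WT on the log2 scale (vertical axis, ± SE from limma) for the members (red) and the nearest named genes on either side in chromosome order (grey); open circles mark genes under the filter, shown without error. F3, F2r and F2rl2 stand at 1.39, 0.79 and 1.31, while the neighbours lie between -0.09 and 0.13.

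The sequence before the start sites of the members was read as a description. F3 and F2rl2 had been chosen by their rise, so finding them higher together with F2r is no ground for a shared regulator, which was not tested. RefSeq's promoter table (GRCm38.p6) held 4 of the 5 genes. The 250 bases before the start are shown 5′ to 3′ on the gene's own strand, with each match to the AP-1 motif TGANTCA in capitals. AP-1 is the Fos and Jun dimer that T cell activation induces, and it is a known regulator of the tissue factor promoter. The windows are chr3:121723287-121723536 (plus strand) for F3, chr13:95618467-95618716 (minus strand) for F2r, chr13:95696670-95696919 (plus strand) for F2rl2 and chr8:72761409-72761658 (plus strand) for F2rl3.
F3: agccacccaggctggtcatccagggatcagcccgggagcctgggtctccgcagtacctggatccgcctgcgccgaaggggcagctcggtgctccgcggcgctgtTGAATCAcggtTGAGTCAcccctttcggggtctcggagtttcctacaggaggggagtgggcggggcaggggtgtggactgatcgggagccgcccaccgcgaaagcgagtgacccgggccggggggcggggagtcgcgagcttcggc
F2r: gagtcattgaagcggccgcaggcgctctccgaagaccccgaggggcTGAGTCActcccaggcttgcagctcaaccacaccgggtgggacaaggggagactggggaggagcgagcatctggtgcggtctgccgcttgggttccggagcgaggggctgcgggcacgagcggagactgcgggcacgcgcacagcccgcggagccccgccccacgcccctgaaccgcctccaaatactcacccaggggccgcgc
F2rl2: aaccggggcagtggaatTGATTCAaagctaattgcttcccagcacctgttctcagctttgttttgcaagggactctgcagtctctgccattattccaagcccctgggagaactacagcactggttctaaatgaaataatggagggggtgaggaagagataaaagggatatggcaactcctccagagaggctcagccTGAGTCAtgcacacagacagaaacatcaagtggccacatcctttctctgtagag
F2rl3: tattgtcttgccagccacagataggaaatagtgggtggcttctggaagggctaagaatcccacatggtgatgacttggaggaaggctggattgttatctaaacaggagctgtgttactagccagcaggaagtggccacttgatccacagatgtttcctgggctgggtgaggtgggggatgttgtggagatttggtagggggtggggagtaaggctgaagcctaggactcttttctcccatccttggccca

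The F3 window held 2 matches to TGANTCA, which begin 146 and 135 bases before the start, the F2r window 1 match at 204 bases and the F2rl2 window 2 matches at 233 and 54 bases. The form TGAGTCA, picked out after the matches were seen, occurred in all 3, and its share over all windows was not counted. The F2rl3 window held no match to TGANTCA. Of all 32841 windows of the same length in the table, 6.75% held at least 1 match and 0.338% at least 2 (both strands searched; the motif reads the same on either strand). The 3 windows differed in base composition, at 70.0% G and C for F3, 70.8% for F2r and 48.4% for F2rl2, against a median of 52.4%. The SP1 motif GGGCGG was present 3 times in F3 and once in F2r (32.7% of all windows hold it), and the NF-kappa-B form GGNNTTTCC once in F3 (4.93%). A form of the STAT motif, TTCNNNGAA, with which the Bcl6 form TTCCTAGAA overlaps, had no match in any of the 4 windows (7.02% and 0.347% of all windows hold them). A match is a description of the letters and not a measured binding site.

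Of 12 genes listed as factors of the F3 promoter, 11 had a probe set and were tested. None passed by limma, beside 1.32% of all tested genes, and 3 had an unadjusted p under 0.05, beside 16.6%. The median difference was -0.04, against -0.02 over all tested genes. Fos, an AP-1 subunit, had the smallest p of the list and was lower in every KO-labelled array (7.82 to 7.95) than in any WT-labelled array (8.10 to 8.33), with a difference of -0.29 ± 0.0605 (SE; limma adjusted p = 0.0539). AP-1 subunits did not all go this way. Jun was lower (-0.19, limma adjusted p = 0.149), but Fosl2 was higher in every KO-labelled array (10.87 to 10.94 against 10.76 to 10.85, limma adjusted p = 0.28). Jun and Fosl2 were named after their values were seen. Of the 11 tested genes, 4 had a positive difference. Fos passed without KO replicate 1 (limma adjusted p = 0.0241), a fit in which 6.56% of all tested genes were called, against 1.32% with all 8 arrays.

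The other genes of the pathway gave no call over the 8 arrays. The 7 lists held 106 distinct symbols, with Grk2 and Grk3 entered also under their older symbols Adrbk1 and Adrbk2. Of these symbols 94 had a probe set and 60 were tested. None passed by limma, beside the background of 1.32%, and 18 had an unadjusted p under 0.05 (16.6% of all tested genes did). The groups did not overlap in 14 of the 60, 4 of them higher in the KO-labelled arrays, beside the 10.8% and 3.1% over all genes. Their median difference was -0.02, the same as over all tested genes. Most genes of the coagulation proteins lay under the filter: of 17 coagulation factor genes on the array, 11 were under it in all 8 arrays and 4 were tested. F2, which encodes prothrombin, lay between 6.20 and 6.55 and F7, which encodes the partner of tissue factor, between 6.81 and 6.99, both under the filter in all 8 arrays. F13a1, the gene of a chain of the clot-crosslinking factor XIII, had the smallest p of that list, with 7.41 to 7.69 in the WT-labelled and 7.62 to 7.92 in the KO-labelled arrays. It differed by 0.33 ± 0.0846 (SE; limma adjusted p = 0.0933) and passed without KO replicate 1 (0.40, limma adjusted p = 0.0104), where 6.56% of all tested genes were called.

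Among anticoagulant genes, Tfpi, which encodes the inhibitor of the complex that tissue factor starts, differed by 0.11 ± 0.0469 (SE; limma adjusted p = 0.288), with no overlap of the groups (9.04 to 9.17 against 9.21 to 9.27). All 3 tested genes of that list had a positive difference. In the fibrinolysis list, 5 of 9 genes on the array were tested. S100a10, the annexin partner that binds plasminogen, had the smallest p, at -0.27 ± 0.0653 (SE; limma adjusted p = 0.0798). Of the proteases that cut PARs, 3 of 13 were tested, and St14, the gene of matriptase, differed by 0.06 ± 0.0605 (SE; limma adjusted p = 0.718). None of the 3 lists held a call, beside 1.32% of all tested genes. In limma, 1, 1 and 0 of their genes had an unadjusted p under 0.05, beside 16.6% of all tested genes.

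Downstream of the receptors, 23 of 25 G protein and effector genes on the array were tested, with a median of -0.06. None passed by limma, beside 1.32% of all tested genes. On this list 8 had an unadjusted p under 0.05, beside 16.6% of all tested genes. Gnaq, the alpha subunit through which PAR1 and PAR4 activate phospholipase C, had the smallest p. It stood at 8.67, 8.52, 8.65 and 8.80 in WT replicates 1 to 4 and 8.88, 9.06, 8.95 and 9.09 in KO replicates 1 to 4. The groups were 0.08 apart, and the difference was 0.34 ± 0.0701 (SE; limma adjusted p = 0.0524), just outside the threshold. Gnaq passed without KO replicate 1 (0.37, limma adjusted p = 0.0147) and without WT replicate 4 (0.38, 0.0455). These fits called 6.56% and 0.897% of all tested genes. Gna13, the gene of another G protein alpha subunit, differed by 0.13 ± 0.0612 (SE; limma adjusted p = 0.34) and passed without KO replicate 1 (0.19, 0.0269). The 8 genes with an unadjusted limma p under 0.05 went both ways. Gnaq and Plcb4 (0.155) were higher in the KO-labelled arrays. Itpr2 (-0.195), Gng2 (-0.1625), Prkca (-0.145), Arhgef1 (-0.14), Arhgef12 (-0.135) and Arhgef11 (-0.11) were lower. Of the 23 tested genes, 8 had a positive difference.

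Of the genes that desensitize or move such receptors, 11 of 13 on the array were tested. None passed by limma, beside 1.32% of all tested genes, and 4 had an unadjusted p under 0.05, beside 16.6%. Grk6, a kinase that marks active receptors for arrestin, had the smallest p, at -0.19 ± 0.0458 (SE; limma adjusted p = 0.0782). Rgs1 and Rgs2, which shorten G protein signals, differed by 0.41 ± 0.111 (SE; limma adjusted p = 0.103) and 0.40 ± 0.146 (SE; 0.217), with overlap of the groups. Without KO replicate 1, Grk6 (-0.17, limma adjusted p = 0.048), Rgs1 (0.48, 0.0285) and Rgs2 (0.52, 0.0304) passed. That fit called 6.56% of all tested genes. Gna13, Rgs1 and Rgs2 were named after their values were seen, as were Plcb4 and the lower genes of the G protein and effector list.

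**Figure D4:**
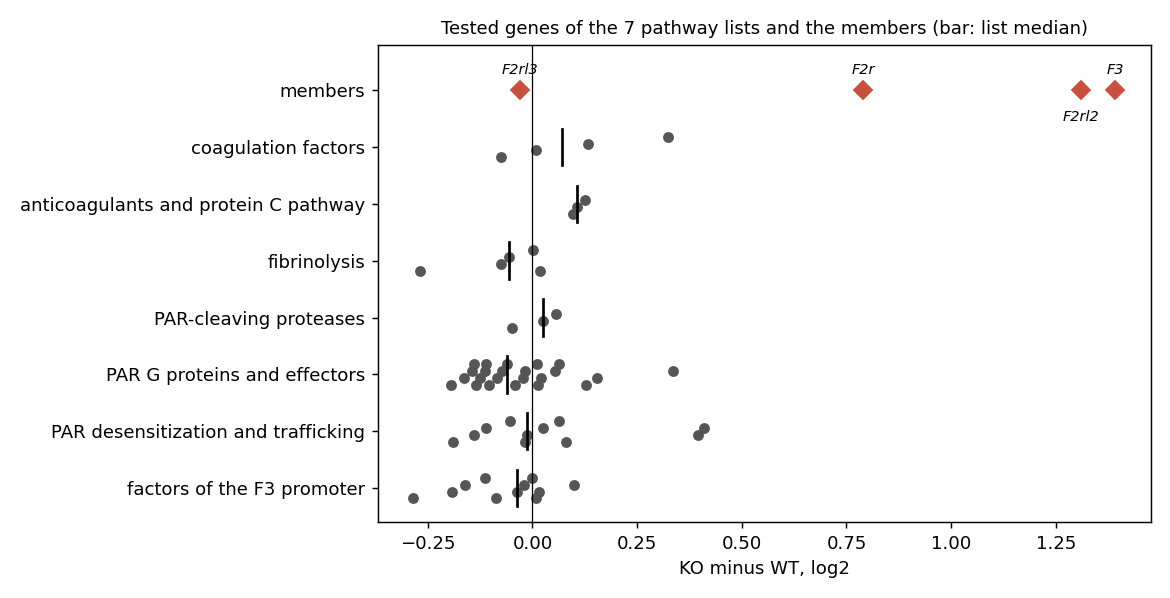
Difference KO minus WT on the log2 scale (horizontal axis) for the tested genes of the 7 pathway lists (grey points, bar at the list median) and for the 4 measured members (red). F3, F2rl2 and F2r lie at 1.39, 1.31 and 0.79, to the right of every list gene, of which the highest is Rgs1 at 0.41. F3 and F2rl2 were chosen by their rise, which largely set their place beforehand.

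Tissue factor and PARs are abundant in other cell types that a sort could carry along, so markers of these were read. Of 10 platelet and megakaryocyte genes on the array 5 were tested, and none passed by limma or had an unadjusted p under 0.05. Pf4 lay under the filter in all 8 arrays (5.30 to 5.65), and the mean of the list was 6.57 to 6.75 in the WT-labelled and 6.57 to 6.77 in the KO-labelled arrays. Of 12 endothelial genes 3 were tested and 9 lay under the filter in all arrays, with list means of 6.79 to 6.83 and 6.74 to 6.95. Of 11 fibroblast and stromal genes 5 were tested, with list means of 7.26 to 7.40 and 7.18 to 7.53, and of 13 monocyte, macrophage and dendritic genes 3, with 6.74 to 6.88 and 6.83 to 6.89. No gene of these 3 lists passed by limma, beside 1.32% of all tested genes. An unadjusted p under 0.05 was held by 0, 1 and 1 of their genes, beside 16.6% of all tested genes. The stromal one was Thy1, which mouse T cells also express, at 12.17 to 12.45 in the WT-labelled and 12.51 to 12.57 in the KO-labelled arrays (limma adjusted p = 0.123). It was named after its values were seen. Of 9 epithelial genes 4 were tested, and Epcam fell by 0.57 (limma adjusted p = 0.0181), while Krt8, Krt19 and Cldn4 differed by 0.00, 0.02 and -0.02, with list means of 6.97 to 7.09 and 6.84 to 7.13. None of 7 mast cell genes reached the filter. Of 8 B cell genes 2 were tested, none of them called by limma or with an unadjusted p under 0.05, with list means of 6.24 to 6.34 and 6.13 to 6.45.

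Within the monocyte, macrophage and dendritic list, 10 genes lay under the filter in all 8 arrays. Among these 10, Ccr2, a chemokine receptor of monocytes and some T cells, was higher in the KO-labelled arrays (5.96 to 6.08 against 5.55 to 5.71; exact permutation p = 0.0286), and Lyz2, a lysozyme of myeloid cells, differed by 0.46 (exact permutation p = 0.0571). Csf1r, Cd14 and Adgre1, which define monocytes and macrophages, were also under the filter and differed by -0.02, 0.04 and 0.04. Of the tested 3, Cst3 differed by -0.16 and Cd68 by -0.18 (limma adjusted p of 0.118 and 0.366). Of 10 CD8 and NK cell genes 6 were tested, and the list median was -0.21. None was called by limma, beside 1.32% of all tested genes, and 3 had an unadjusted p under 0.05, beside 16.6%. The list mean was 7.53 to 7.93 in the WT-labelled and 7.49 to 7.62 in the KO-labelled arrays. Nkg7, a granule protein gene, differed by -0.89 (limma adjusted p = 0.0947) and Prf1, the gene of perforin, by -0.44 (0.102), both with no overlap of the groups, and Eomes by -0.37 (0.232). Klrd1, under the filter in all 8 arrays, differed by -0.39 (exact permutation p = 0.0286), whereas Gzmb differed by 0.35 (limma adjusted p = 0.385) and Cd8a and Cd8b1 by -0.04 and 0.03. The genes of this paragraph were named after their values were seen, and the part of these cell types in the values of F3, F2r and F2rl2 was not tested. In such bulk samples a change in the number of cells that carry a transcript and a change in its amount per cell cannot be told apart.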

How the data were processed

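The authors deposited 1 log2 value per probe set and array for 8 arrays (4 WT, 4 KO, grouped by title), made from 100 ng of total RNA each. RMA and Partek are named, per the submitters' processing notes; versions and order of steps are not given in the sources used here. Such values are usually made comparable between arrays, which hides any shift in RNA content per cell; the number of arrays limits the precision.

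Of 35556 probe sets, 21789 had 1 symbol in the platform annotation, 1621 several and 12146 were not listed. For the 999 genes with more than 1, the probe set with the highest mean stood for the gene. Differences were tested with limma 3.58.1 in R 4.3.3 (lmFit, eBayes, no block, two-sided, Benjamini-Hochberg over 11926 genes, threshold 0.05), after a test on simulated data. Single values also had an exact permutation test. Motifs were searched in Python 3.11.15. The members and lists were chosen with earlier results of these data known. Genes named were the members, Bcl6, the called genes or else the smallest p of each of 7 lists, the 3 most like each member and the nearest 2 on either side, leaving out predicted genes and small RNAs. RefSeq's table (GRCm38.p6) gave gene order; the files name no build. Alternatives covered normalization, filter, variance model, array weights, probe set choice, replicate block, left-out arrays and thresholds.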

Additional observations from a re-analysis of the deposited data

Results flagged for a closer look

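Among 24 groups of 4 values, for the members, Bcl6 and the list means, 2 held an array far from the other 3; chance gives about 1 in 20 such groups. F2rl2 was low in WT replicate 1 (7.57, the others 7.73 to 7.76). The mean of the list of PAR desensitization and trafficking genes was high in the same array (9.71, the others 9.61 to 9.63). Without WT replicate 1 the difference of F2rl2 was 1.27 in place of 1.31.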

How the results depend on the processing

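F2r was higher and past the threshold in each of the 21 alternatives (0.69 to 0.85). As a description with no test, F3 differed by 1.29 to 1.64 and F2rl2 by 1.25 to 1.37. For F3, F2r and F2rl2 in turn, the lowest and highest values with 1 array left out were 1.29 and 1.56, 0.69 and 0.85, and 1.25 and 1.36. F2rl3 stayed short of the threshold in all 21 (-0.097 to 0.017, the lowest with array weights). It lay between -0.06 and 0.017 with 1 array left out, reversed without KO replicate 3 (0.017). Hmgxb4 reversed with array weights (0.011), without KO replicate 1 and without KO 1 and WT 3 together (0.017), and ran from -0.095 to 0.025 with 1 array left out. Cnn3 reversed without WT replicate 3 and ran from -0.049 to 0.0042.

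The count of all called genes, 157, was 322 with quantile normalization, 78 with arrays centred on their medians (48 higher, 30 lower), 58 with no filter, 354 with a trend and robust prior, 1980 with array weights, 443 without KO 1 and WT 3 together, 27 at a threshold of 0.01 and 468 at 0.1. With 1 array left out it ran from 31 (without WT replicate 2) to 782 (without KO replicate 1). A filter percentile over all probe sets, chosen after seeing the data, gave 111.

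The 7 lists held 0 calls over the 8 arrays. The counts below stand beside the share of all tested genes called in each setting. This share was 1.32% in the main fit, 16.6% with array weights, 2.7% with quantile normalization and 2.32% with a filter at the 50th percentile. It was 2.97% with the trend and robust prior, 3.71% without KO 1 and WT 3 together and 3.92% at a threshold of 0.1. With 1 array left out it ran from 0.26% to 6.56%, the highest without KO replicate 1. Coagulation factors held 1 with array weights, without KO 1 and WT 3 together and at a threshold of 0.1, and 0 to 1 with 1 array left out. Anticoagulants held 1 with array weights. Fibrinolysis held 1 with quantile normalization, the trend and robust prior, array weights and a threshold of 0.1. G proteins and effectors held 6 with array weights, 1 with quantile normalization, a filter at the 50th percentile, the trend and robust prior, without KO 1 and WT 3 together and at 0.1, and 0 to 2 with 1 array left out. Desensitization and trafficking held 3 with array weights, 1 with quantile normalization, the trend and robust prior and a threshold of 0.1, and 0 to 3 with 1 array left out. Factors of the F3 promoter held 2 with array weights, 1 with quantile normalization, a filter at the 50th percentile, without KO 1 and WT 3 together and at 0.1, and 0 to 1 with 1 array left out. The cause of these moves was not tested.

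Arrays of the same number did not deviate together in every pair (r of 0.01, 0.14, -0.17 and 0.31), so the numbers were not taken as pairs. With the replicate block 36 genes were called; F2r kept its call (limma adjusted p = 0.0106) and F2rl3 did not pass.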
